A study of Mus musculus with 10 samples.

Results

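The genes described here are 10 markers of tissue-resident macrophages and C1q chains, chosen by gene symbol and not by a threshold on their values. All 10 were found among the 30319 gene symbols measured in inguinal subcutaneous mammary fat pads. Adgre1, which encodes the F4/80 antigen, was found under its older symbol, Emr1. The animals were female FVB mice, either null for Fap (FAP-/-), the gene of fibroblast activation protein, or wild-type. They ate ingredient-matched chow with 60% of its calories from fat (HFD) or 10% (LFD) between 12 and 30 weeks of age. The groups were Null_HFD (n = 3), WT_HFD (n = 2), Null_LFD (n = 3) and WT_LFD (n = 2). Samples are described as biological replicates, and frozen pads were homogenised, so every value is a mixture over the cell types of a pad. Libraries were made from total RNA depleted of ribosomal RNA, and levels are given as TPM, a transcript abundance that is scaled to transcript length and can be compared between genes.

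Resident macrophages of fat lie along vessels and between adipocytes, where they depend on signals through the receptor encoded by Csf1r and clear dying cells and debris. Many carry scavenger and endocytic receptors, among them those encoded by Mrc1, Cd163, Lyve1, Folr2 and Timd4. Macrophages are also the main source of C1q, the recognition subunit of the classical complement pathway, which is assembled from the chains encoded by C1qa, C1qb and C1qc and works with the proteases C1r and C1s. In bulk tissue, fewer cells of a type and less RNA per cell cannot be told apart.

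The C1q genes lie side by side on the minus strand of chromosome 4, between 136880129 and 136898803 (GRCm38), in the order C1qb, C1qc and C1qa, with 3616 and 2851 bases between neighbours. Timd4 lies on the plus strand of chromosome 11 from 46810800 to 46844332, and Mrc1 on the plus strand of chromosome 2, the chromosome that also carries Fap, from 14229392 to 14332057. Cd163 lies on chromosome 6 (124304656 to 124330527), Lyve1 and Folr2 on chromosome 7 (110850607 to 110863239 and 101839988 to 101857194) and Adgre1 on chromosome 17 (57358691 to 57483527). All are annotated as protein coding. The bases before the RefSeq starts of C1qb, C1qc and Timd4 (RefSeq, GRCm38.p6) are shown because the C1q chains are the most abundant members and Timd4 varied most between libraries. Capitals mark GAGGAA, a core of sites for the macrophage factor PU.1, and TGCTGA, a half-site of MAF factors, on either strand, and the motifs do not overlap each other. The C1qc stretch stops where the annotated gene begins.
C1qb, chr4:136886201-136886450, minus strand: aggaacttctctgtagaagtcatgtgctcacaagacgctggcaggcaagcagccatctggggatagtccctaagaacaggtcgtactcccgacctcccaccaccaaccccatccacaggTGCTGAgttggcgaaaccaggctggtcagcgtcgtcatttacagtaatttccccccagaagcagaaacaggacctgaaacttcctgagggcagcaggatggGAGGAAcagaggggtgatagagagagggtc
C1qc, chr4:136893066-136893164, minus strand: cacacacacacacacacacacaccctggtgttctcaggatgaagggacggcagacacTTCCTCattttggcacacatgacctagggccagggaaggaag
Timd4, chr11:46810549-46810798, plus strand: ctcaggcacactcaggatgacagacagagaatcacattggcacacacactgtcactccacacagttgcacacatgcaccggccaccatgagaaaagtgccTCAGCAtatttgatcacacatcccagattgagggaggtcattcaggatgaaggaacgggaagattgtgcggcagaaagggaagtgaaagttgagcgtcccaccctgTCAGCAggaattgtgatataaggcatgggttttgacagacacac

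Promoters of 6 members were searched in the RefSeq table, leaving out chromosome 18, which carries Csf1r. Of these 6 members, 3 held GAGGAA in the 250 bases before a start (Mrc1, C1qb and C1qc), against 23.3% of 32851 promoters. No chromosome was left out of the 32851. TGCTGA was found in 3 of the 6 (C1qb, Folr2 and Timd4), against 16.1% of promoters. The members are counted by gene, over 7 promoters, whereas the percentages count single promoters. Such a match is a match of letters and does not show that a factor binds.

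Facts of the whole series bear on several members. Fap itself measured 18.3 to 38.4 TPM in null and 37.7 to 68.8 TPM in wild-type libraries, so its transcript remained present in null pads, and the labels do not say which part of the gene is disrupted. Null_HFD 3 and WT_HFD 2 differed from the remaining 8 libraries. Their 12 markers of B cells, T cells and lymph node summed to 3108 and 1378 TPM, against 29.1 to 82.0 TPM in the others, and their 8 skeletal muscle markers summed to 93.7 and 201 TPM, against 1811 to 9010 TPM. Adipocyte markers, led by Fabp4 and Cfd, summed to 10137 to 31806 TPM over the 10 libraries, with the lowest sum in Null_HFD 3. Both of those libraries are on the high-fat diet, 1 in each genotype.

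All 10 members were expressed in every library and passed the filter of at least 1 TPM in at least 2 libraries that 16932 genes passed. C1qa had the highest mean level (149.9 TPM), above 95.2% of the genes tested, followed by C1qc (95.7 TPM), C1qb (92.0 TPM), Mrc1 (77.5 TPM) and Csf1r (70.6 TPM). Folr2 (42.5 TPM), Cd163 (24.2 TPM), Adgre1 (20.9 TPM), Lyve1 (17.9 TPM) and Timd4 (15.3 TPM) were lower. The order was firm at a few steps only: C1qa exceeded C1qc in 10 of 10 libraries and Folr2 exceeded Cd163 in 10 of 10. C1qc exceeded C1qb in 6 libraries and Cd163 exceeded Adgre1 in 5, so those neighbours did not differ beyond their spread. The mean of Timd4 was set by the libraries that stood apart, since its median was 6.48 TPM.

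**Figure D1:**
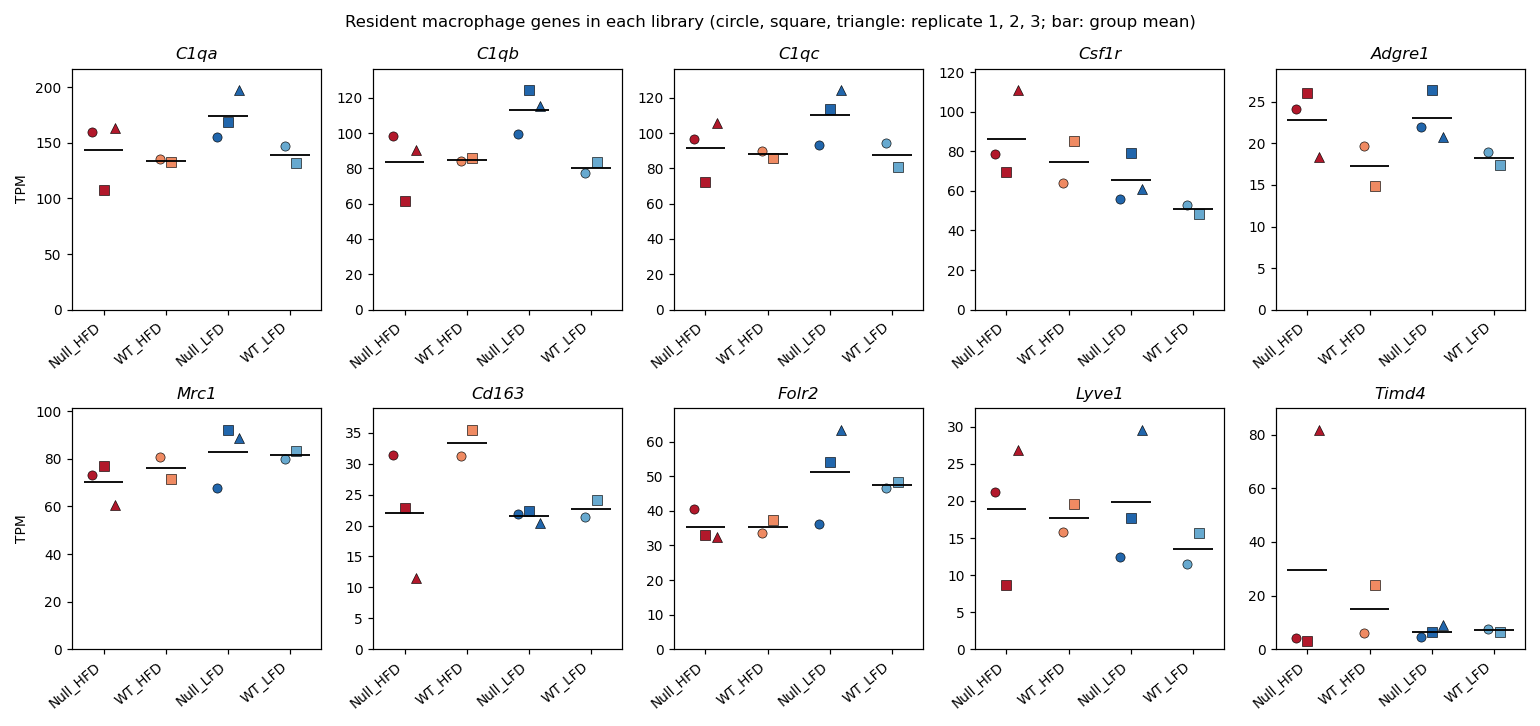
Levels of the 10 resident macrophage genes in TPM (y axes, from 0) in each library, by group (x axes), with a bar at the group mean. Timd4 reached 81.5 TPM in Null_HFD 3 and 24.2 TPM in WT_HFD 2, against 3.13 to 9.02 TPM in the other 8 libraries, while the highest value of each C1q gene was 1.71 to 2.02 times its lowest.

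The C1q genes were the most abundant members. C1qa, the A chain, measured 159.7, 107.5 and 164 TPM in Null_HFD, 135 and 133 TPM in WT_HFD, 156, 169 and 197 TPM in Null_LFD and 147 and 132 TPM in WT_LFD. C1qb, the B chain, measured 98.4, 61.4 and 90.4 TPM in Null_HFD, 84.0 and 86.0 TPM in WT_HFD, 99.3, 124 and 115 TPM in Null_LFD and 77.2 and 83.6 TPM in WT_LFD. C1qc, the C chain, measured 96.4, 72.5 and 105 TPM in Null_HFD, 90.0 and 86.0 TPM in WT_HFD, 93.3, 114 and 124 TPM in Null_LFD and 94.6 and 80.7 TPM in WT_LFD. For all 3 chains Null_HFD 2 was the lowest library, and null low-fat pads held the highest values. On the low-fat diet, null libraries lay wholly above wild-type libraries for C1qa and C1qb, as for 19.1% of all genes tested, and they overlapped for C1qc. On the high-fat diet the null libraries lay on both sides of the wild-type ones.

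C1qc kept a nearly fixed proportion to C1qa, and C1qb did so less. The ratio of C1qc to C1qa ran from 0.600 in Null_LFD 1 to 0.675 in Null_HFD 2, a span of 1.13 times over the 10 libraries, while the sum of the 3 chains spanned 1.81 times (241 TPM in Null_HFD 2 to 437 TPM in Null_LFD 3). The ratio of C1qb to C1qa ran from 0.525 in WT_LFD 1 to 0.735 in Null_LFD 2, a span of 1.4 times, and that of C1qb to C1qc spanned 1.34 times. Together the chains made up 50.1% to 61.2% of the summed TPM of the 10 members.

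**Figure D2:**
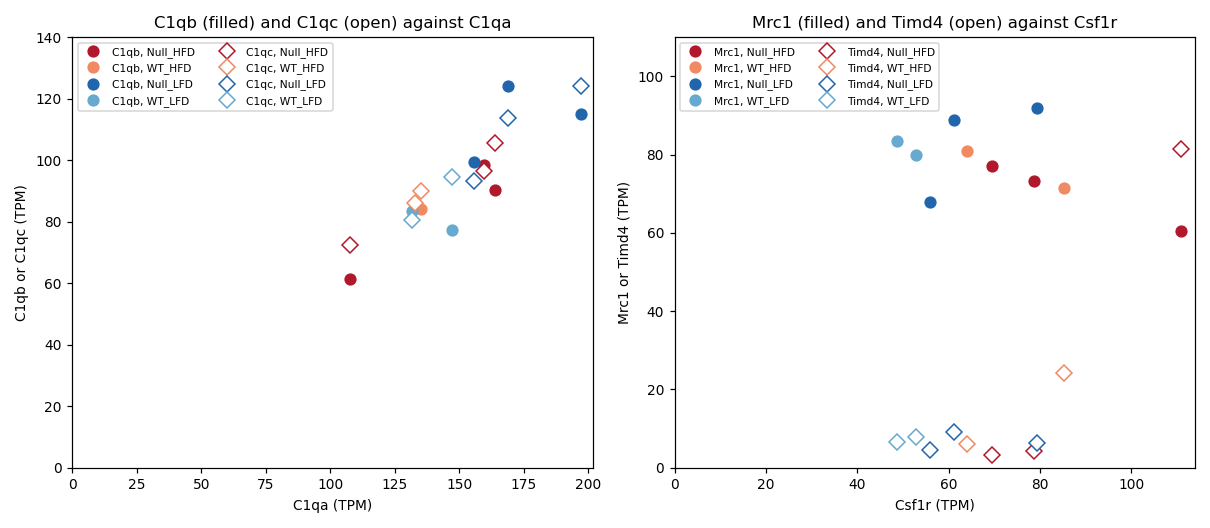
Each library as a point in TPM, with C1qb (filled) and C1qc (open) against C1qa on the left, and Mrc1 (filled) and Timd4 (open) against Csf1r on the right, coloured by group. The C1qc points follow C1qa at a ratio of 0.600 to 0.675, whereas Timd4 is 0.0451 to 0.736 times Csf1r and is highest where Csf1r is highest, in Null_HFD 3.

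Csf1r and Adgre1 are the most general macrophage genes of the set. Csf1r, the receptor for the growth factors CSF1 and IL-34, measured 78.8, 69.4 and 111 TPM in Null_HFD, 64.1 and 85.3 TPM in WT_HFD, 55.8, 79.3 and 61.1 TPM in Null_LFD and 52.9 and 48.6 TPM in WT_LFD. Adgre1, an adhesion receptor used to identify mouse macrophages, measured 24.2, 26.1 and 18.3 TPM in Null_HFD, 19.7 and 14.9 TPM in WT_HFD, 22.0, 26.4 and 20.8 TPM in Null_LFD and 19.0 and 17.4 TPM in WT_LFD. Both were higher in all 3 null than in both wild-type libraries on the low-fat diet, as 19.1% of all genes tested were. Both overlapped on the high-fat diet. They parted in the libraries that stood apart. Csf1r had its highest values there, and Adgre1 measured 18.3 and 14.9 TPM, so that Csf1r was 6.05 times Adgre1 in Null_HFD 3 and 5.71 times in WT_HFD 2, against 2.54 to 3.26 times elsewhere.

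Among the endocytic receptors, Mrc1 was the steadiest member. Mrc1, the mannose receptor CD206, measured 73.4, 77.1 and 60.5 TPM in Null_HFD, 80.9 and 71.5 TPM in WT_HFD, 67.8, 91.9 and 88.9 TPM in Null_LFD and 79.8 and 83.4 TPM in WT_LFD. Cd163, a receptor for haemoglobin bound to haptoglobin, measured 31.4, 22.9 and 11.6 TPM in Null_HFD, 31.3 and 35.3 TPM in WT_HFD, 21.9, 22.3 and 20.4 TPM in Null_LFD and 21.3 and 24.1 TPM in WT_LFD. The 5 low-fat values of Cd163 were close together, and its lowest and highest values were in Null_HFD 3 and WT_HFD 2. Folr2, folate receptor beta, measured 40.5, 33.0 and 32.4 TPM in Null_HFD, 33.7 and 37.2 TPM in WT_HFD, 36.2, 54.1 and 63.2 TPM in Null_LFD and 46.7 and 48.3 TPM in WT_LFD. Apart from Null_LFD 1 at 36.2 TPM, the low-fat libraries lay above all high-fat libraries for Folr2.

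Lyve1 and Timd4 varied most. Lyve1, a hyaluronan receptor that lymphatic endothelium carries as well as macrophages, measured 21.2, 8.64 and 26.8 TPM in Null_HFD, 15.8 and 19.5 TPM in WT_HFD, 12.5, 17.6 and 29.5 TPM in Null_LFD and 11.4 and 15.7 TPM in WT_LFD. Its highest values were in Null_LFD 3 and Null_HFD 3, and every group overlapped another. Prox1, which defines lymphatic endothelium, measured 5.32 TPM in Null_HFD 3 and 1.52 TPM in WT_HFD 2, and 0.360 to 0.984 TPM in the other 8 libraries. Not all such markers did so. Of the 6 that passed the filter, Prox1 among them, 4 lay above the range of the other 8 libraries in Null_HFD 3. In WT_HFD 2 only 2 of the 6 did, and the share of all genes above that range was not counted. The 7 lymphatic endothelium markers summed to 805 and 326 TPM in Null_HFD 3 and WT_HFD 2, largely Ccl21a, and to 15.8 to 37.5 TPM elsewhere, and their part in the Lyve1 values was not tested.

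Timd4, a receptor for phosphatidylserine on dying cells, measured 4.20, 3.13 and 81.5 TPM in Null_HFD, 6.04 and 24.2 TPM in WT_HFD, 4.47, 6.41 and 9.02 TPM in Null_LFD and 7.74 and 6.55 TPM in WT_LFD. Its high values were those of the libraries rich in lymph node markers, and in the remaining 8 libraries it stayed between 3.13 and 9.02 TPM. Marco and Siglec1, chosen after their values were seen from 18 other resident macrophage genes, were also high there, and the list as a whole was not. Marco, a scavenger receptor, measured 102.9 TPM in Null_HFD 3 and 19.0 TPM in WT_HFD 2 and at most 1.66 TPM elsewhere. Siglec1, a sialic acid-binding adhesion receptor, measured 45.2 and 21.6 TPM there and 9.25 to 16.8 TPM elsewhere. Of the 18 genes, 2 lay above and 4 below the range of the other 8 libraries in Null_HFD 3, and 3 above and 3 below it in WT_HFD 2, and the list's mean on the log2(TPM + 1) scale was 0.08 and 0.0025 above its mean over all libraries. Below the range in both was Fcrls, an Fc receptor-like gene, at 10.7 and 9.79 TPM against 14.7 to 40.04 TPM elsewhere. C1qa (164 and 133 TPM), Mrc1 (60.5 and 71.5 TPM) and Folr2 (32.4 and 37.2 TPM) in those libraries lay inside or just below the range of the others. The share of all genes outside the range of the other 8 libraries was not counted, and the part of lymph node tissue in these values was not tested.

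**Figure D3:**
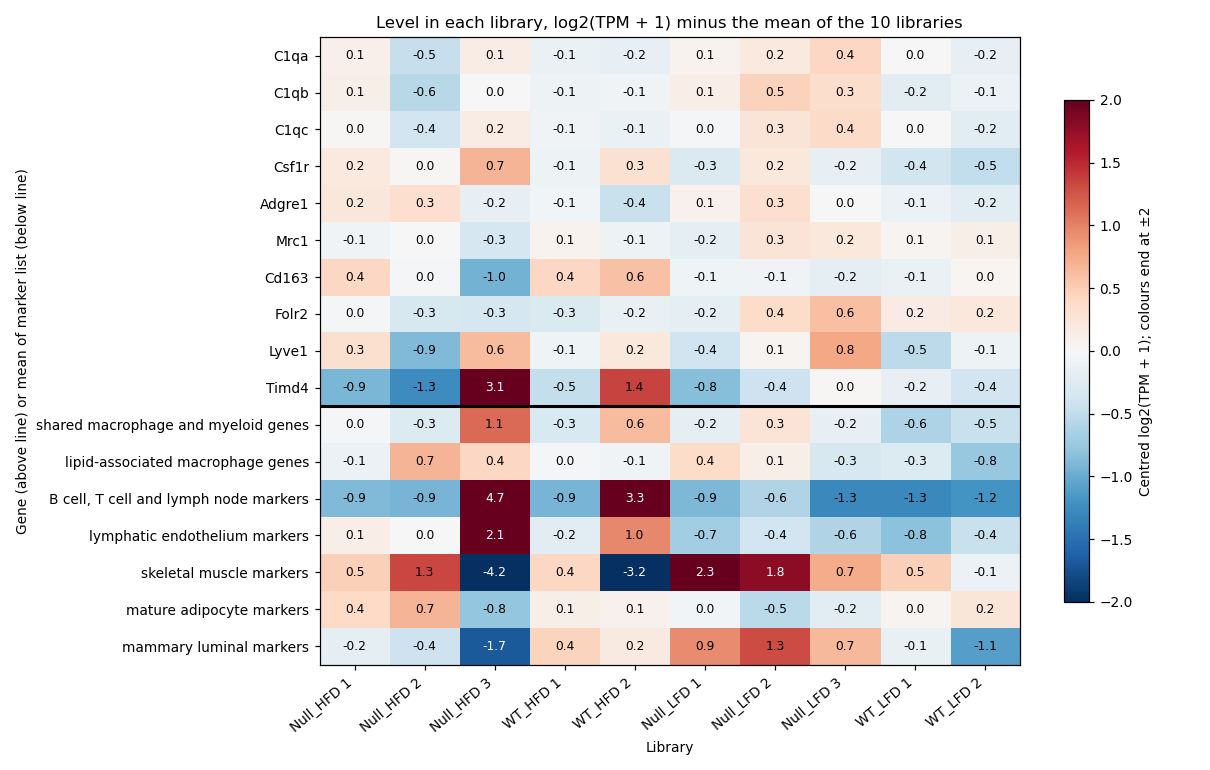
Level of each member (above the line) and mean level of fixed marker lists (below it) in each library (x axis), as log2(TPM + 1) minus the mean of the 10 libraries, with the colour scale ending at 2 either way. Timd4 is highest in Null_HFD 3 and WT_HFD 2, where the lymph node markers lay 4.70 and 3.33 above their mean.

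Across both diets, 6 null libraries were set against 4 wild-type libraries, to ask which transcripts differ when Fap is lost. None of the 10 members passed the test (limma with Benjamini-Hochberg adjustment over all genes, adjusted p at most 0.05), where 0% of the 16932 genes did. No member had an unadjusted p under 0.05 either, against 4.19% of genes. The difference was above 0 for 7 of 10 members, against 63.5% of all genes, and the median was 0.19 over the members and 0.08 over all genes on the log2(TPM + 1) scale. Null and wild-type libraries overlapped for all 10 members, against 0.921% of genes with no overlap.

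The general macrophage genes had the largest positive differences. Adgre1 ranged from 18.3 to 26.4 TPM in null and from 14.9 to 19.7 TPM in wild-type libraries (log2 difference 0.35, SE 0.16, limma adjusted p = 0.98), and Csf1r differed by 0.27 (SE 0.18, adjusted p = 0.98). C1qa, C1qb and C1qc differed by 0.19 (SE 0.16), 0.21 (SE 0.16) and 0.18 (SE 0.15), each with an adjusted p of 0.98. Without Null_HFD 2, C1qa differed by 0.29, and without Null_HFD 3 or WT_HFD 1 Csf1r differed by 0.17. Lyve1 differed by 0.21 (SE 0.33) and Folr2 by 0.03 (SE 0.17), a value that was -0.05 with median-of-ratios scaling. Below 0 were Cd163 at -0.38 (SE 0.24), Timd4 at -0.14 (SE 0.80) and Mrc1 at -0.05 (SE 0.14). Without Null_HFD 3 and WT_HFD 2 the difference of Cd163 was -0.14 (SE 0.15) and that of Timd4 -0.37 (SE 0.26), while Adgre1 was at 0.33 (SE 0.14), Csf1r at 0.28 (SE 0.15) and C1qc at 0.11 (SE 0.16).

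**Figure D4:**
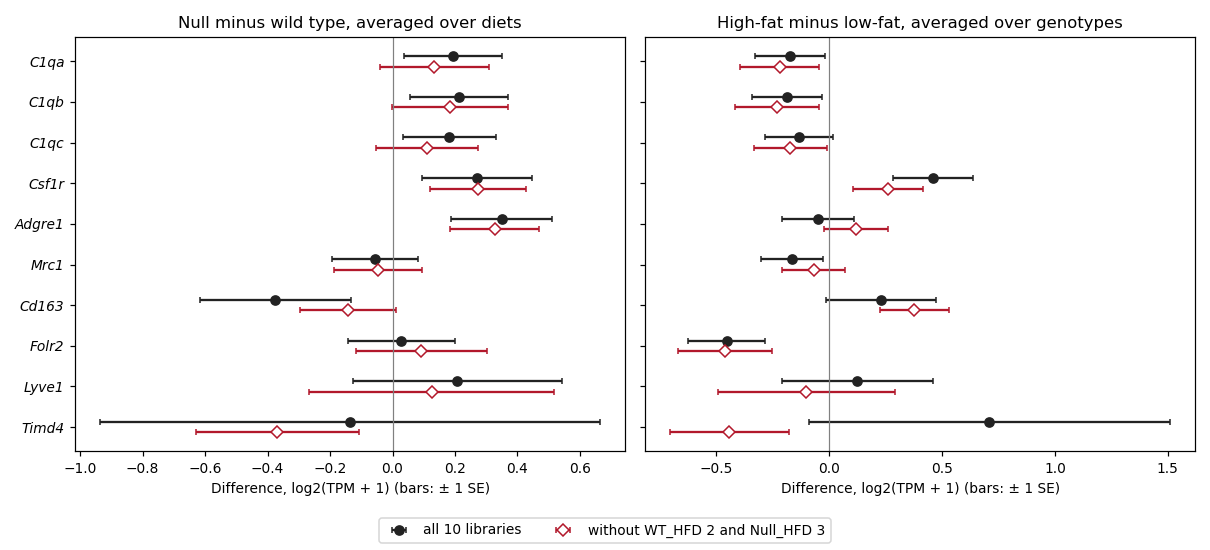
Difference of each member on the log2(TPM + 1) scale (x axes, bars ± 1 SE) for null minus wild type (left) and high-fat minus low-fat (right), from all 10 libraries (black) and without Null_HFD 3 and WT_HFD 2 (open). On the right, Timd4 is at 0.71 with all libraries and at -0.44 without both, and Folr2 and Csf1r lie on opposite sides of 0 in both.

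Within the low-fat diet, 3 null were compared with 2 wild-type libraries, and no member passed (0% of genes passed, and 4.43% had an unadjusted p under 0.05). The difference was above 0 for 8 of 10 members, against 67% of genes, and the median was 0.32 over the members and 0.15 over all genes. Null libraries lay wholly above wild-type libraries for 4 members, C1qa, C1qb, Csf1r and Adgre1, against 19.1% of genes. C1qb had the smallest p of the members. It averaged 113 ± 12.6 TPM in Null_LFD (SD, n = 3) and 80.4 ± 4.49 TPM in WT_LFD (SD, n = 2), a log2 difference of 0.48 (SE 0.22, limma adjusted p = 0.949). Relative to the median of all genes that difference was 0.33. Skeletal muscle markers summed to 3093 to 9010 TPM in Null_LFD and 2552 and 1811 TPM in WT_LFD, and mammary luminal markers to 1474 to 2431 TPM in Null_LFD and 996.9 and 466.4 TPM in WT_LFD. The part of these other tissues in the C1q values was not tested.

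Within the high-fat diet no member passed, where 0.0118% of genes did, and none had an unadjusted p under 0.05, against 3.82% of genes. The difference was above 0 for 4 members, against 52.1% of genes. Null and wild-type libraries overlapped for all 10 members, against 15.5% of genes with no overlap. Cd163 had the smallest p, at 22.0 ± 9.94 TPM in Null_HFD (SD, n = 3) and 33.3 ± 2.87 TPM in WT_HFD (SD, n = 2), a log2 difference of -0.68 (SE 0.34, limma adjusted p = 1). It rested on Null_HFD 3, and without that library the difference was -0.30. The test of the interaction, which asks whether the genotype difference depends on the diet, passed for no member (0% of genes), and none had an unadjusted p under 0.05, against 4.14% of genes. The interaction was above 0 for 1 of 10 members, Adgre1, against 38.2% of genes, and its smallest p was that of C1qb (-0.53, SE 0.31, limma adjusted p = 1), at -0.33 without Null_HFD 2.

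Diet was compared over both genotypes, with 5 high-fat against 5 low-fat libraries. No member passed (0% of genes passed), and 2 members, Csf1r and Folr2, had an unadjusted p under 0.05, against 9.69% of genes. They differed in opposite directions. Folr2 ranged from 32.4 to 40.5 TPM in high-fat and from 36.2 to 63.2 TPM in low-fat libraries (log2 difference -0.45, SE 0.17, limma adjusted p = 0.513). Csf1r ranged from 64.1 to 111 TPM in high-fat and from 48.6 to 79.3 TPM in low-fat libraries (0.46, SE 0.18, adjusted p = 0.513). For both, 1 low-fat library crossed into the high-fat range, Null_LFD 1 for Folr2 and Null_LFD 2 for Csf1r. Relative to the median of all genes, which was 0.11 and moved to -0.0056 with median-of-ratios scaling, Folr2 differed by -0.56 and Csf1r by 0.35.

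None of the other members had an unadjusted p under 0.05 between the diets. C1qa was at -0.17 (SE 0.16), C1qb at -0.19 (SE 0.16), C1qc at -0.13 (SE 0.15) and Mrc1 at -0.16 (SE 0.14), all on the log2(TPM + 1) scale. Without Null_HFD 2, the lowest library for each chain, C1qa was at -0.08, C1qb at -0.09 and C1qc at -0.05. Cd163 was at 0.23 (SE 0.24) and Adgre1 at -0.05 (SE 0.16). Lyve1 was at 0.12 (SE 0.33), and at -0.0034 with median-of-ratios scaling. Timd4 was at 0.71 (SE 0.80), a value carried by the libraries rich in lymph node markers. Without Null_HFD 3 and WT_HFD 2, Timd4 was at -0.44 (SE 0.26), Adgre1 at 0.12 (SE 0.14), Lyve1 at -0.10 (SE 0.39), Cd163 at 0.38 (SE 0.15) and Csf1r at 0.26 (SE 0.15), and Folr2 was at -0.46 (SE 0.21). The difference was above 0 for 4 of 10 members, against 63.4% of genes, and the members' median was -0.09. High-fat and low-fat libraries overlapped for every member, against 2% of genes with no overlap.

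Within wild type, where 2 libraries stood against 2, no member passed (0% of genes), none had an unadjusted p under 0.05, against 5.61% of genes, and the difference was above 0 for 6 members, against 67.1%. High-fat libraries lay wholly above low-fat ones for 4 members, Csf1r, Cd163, Lyve1 and C1qb, against 33.7% of genes, and wholly below for Folr2, against 11.5%. Csf1r had the smallest p, with 74.7 ± 15.0 TPM in WT_HFD and 50.7 ± 3.07 TPM in WT_LFD (SD, n = 2 each), a log2 difference of 0.54 (SE 0.27, limma adjusted p = 0.761). Without WT_HFD 2, which is rich in lymph node markers, it was 0.33. Within null no member passed (0.00591% of genes did), and 2 had an unadjusted p under 0.05, against 6.67% of genes. The difference was above 0 for 2 of 10 members, against 54.9% of genes. C1qb averaged 83.4 ± 19.5 TPM in Null_HFD and 113 ± 12.6 TPM in Null_LFD (SD, n = 3 each), with every high-fat value below every low-fat value, as for 4.49% of genes (log2 difference -0.45, SE 0.20, limma adjusted p = 0.744). It was -0.25 without Null_HFD 2. Folr2 averaged 35.3 ± 4.49 TPM in Null_HFD and 51.2 ± 13.8 TPM in Null_LFD (SD, n = 3 each), with overlap (-0.49, SE 0.22, adjusted p = 0.744), and the difference was -0.32 without Null_LFD 3. These comparisons share libraries with each other and with the averaged ones.

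Partners of these genes were read from lists chosen by pathway. Over all genes tested, 63.5% lay higher in null pads and 63.4% in high-fat pads. Of the 8 genes of C1r, C1s, the C1 inhibitor and the next complement components, 6 lay lower and 2 higher in null pads, with a median of -0.09, and none passed. Serping1, the inhibitor of C1r and C1s, measured 133 to 257 TPM in null and 274 to 402 TPM in wild-type libraries and differed by -0.78 (SE 0.16, limma adjusted p = 0.544), while the C1q chains differed by 0.18 to 0.21. Between the diets all 8 lay higher in high-fat pads, with a median of 0.34 against 0.11 over all genes. The largest of these was C4b, the source of the C4 fragment deposited by C1s, at 0.75 (SE 0.21, adjusted p = 0.513), and C1s1 differed by 0.55 (SE 0.16, adjusted p = 0.513), whereas the C1q chains lay between -0.19 and -0.13. Without Null_HFD 3 and WT_HFD 2, 7 of the 8 lay higher in high-fat pads, with a median of 0.30 against 0.06 over all genes. In that fit C4b was at 0.44 (SE 0.15). The share of all genes above 0 was not counted for the fits of lists without these libraries. None of the 8 passed in either comparison.

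Among 8 genes of CSF1R ligands and macrophage transcription factors, 5 lay higher in null pads and 5 in high-fat pads, and none passed. The shares of all genes were 63.5% and 63.4%. Il34, a ligand of the receptor, differed by 0.39 between null and wild type (SE 0.28, limma adjusted p = 0.98). Irf8, a myeloid and B cell factor, differed by 1.49 between the diets (SE 0.63, adjusted p = 0.513), with 130 TPM in Null_HFD 3 and 39.0 TPM in WT_HFD 2, against 5.98 to 14.5 TPM elsewhere. Without those libraries Irf8 differed by 0.54 (SE 0.19). In the same fit 7 of the 8 genes lay higher in high-fat pads, with a median of 0.16 against 0.06 over all genes. Of 18 other resident macrophage genes, 13 lay higher in null pads and 7 in high-fat pads, with medians of 0.09 and -0.07. The medians over all genes were 0.08 and 0.11. Cd209g and Cd209f, lectin receptors of resident macrophages, differed by -0.69 (SE 0.26) and -0.60 (SE 0.28) between the diets (limma adjusted p = 0.513 and 0.527), and by -0.43 (SE 0.29) and -0.31 (SE 0.29) without Null_HFD 3 and WT_HFD 2.

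Of 14 genes shared by macrophages and other myeloid cells, 14 lay higher in high-fat pads, with a median of 0.43, where 4 of 10 members did, with a median of -0.09. That median, and to a lesser extent the count, depended on the libraries rich in lymph node markers. The list's mean lay 1.13 and 0.63 above its mean over all libraries in Null_HFD 3 and WT_HFD 2, and at -0.31 to -0.02 in the other 3 high-fat libraries, against -0.62 to 0.27 in low-fat libraries. In Null_HFD 3, 8 of the 14 genes lay above the range of the other 8 libraries and in WT_HFD 2, 7 did, among them Ptprc, Lyz2, Ctss, Laptm5 and Aif1. Ptprc, a gene of all leukocytes, measured 773 and 358 TPM there, against 36.2 to 62.0 TPM elsewhere. Without both libraries 12 of the 14 genes lay higher in high-fat pads, with a median of 0.16 against 0.06 over all genes, and none passed in either fit. The difference between the medians of this list and of the members was not tested. Between the genotypes, 12 of the 14 lay higher in null pads, against 63.5% of all genes, and none passed. The median was 0.33 against 0.08 over all genes. Without both libraries 12 of the 14 lay higher in null pads, with a median of 0.28 against 0.11 over all genes. Cd68, a lysosomal protein of macrophages, differed by 0.45 between null and wild type (SE 0.24, limma adjusted p = 0.98). Tyrobp, an adaptor of myeloid receptors, was listed at or near 0 in 2 libraries and at 95.5 TPM in another, so its values are uncertain. Of 13 lipid-associated macrophage genes, 12 lay higher in null pads with a median of 0.49, against 63.5% of all genes. In high-fat pads 11 lay higher with a median of 0.46, against 63.4% of all genes, and none passed in either comparison. Trem2, the lipid receptor that marks such cells, measured 5.17 to 17.4 TPM in null and 2.39 to 4.60 TPM in wild-type libraries. These ranges did not overlap, as for 0.921% of all genes in either direction, and Trem2 differed by 1.09 (SE 0.33, limma adjusted p = 0.98). The defining neutrophil marker Ly6g was listed at 0 in 7 libraries and at most at 0.588 TPM. It did not pass the filter, whereas the other 7 monocyte and neutrophil markers did. In Null_HFD 3 all 7 of these lay above the range of the other 8 libraries, and in WT_HFD 2, 2 did. For these counts and those of the 14 shared genes, the share of all genes above that range was not counted.

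Genes whose pattern over the 10 libraries was most like that of the members were found by the root mean square difference of centred log2(TPM + 1) values, among 11873 other genes whose mean reached 5 TPM. Closest to the mean of the C1q chains were Tram1 (0.119), Ergic2 (0.128), Pigh (0.143), Tmed7 (0.148) and Naca (0.149), against a spread of that mean of 0.231. Closest to the mean of Cd163, Lyve1, Folr2 and Timd4 were Gpbp1 (0.150), Psip1 (0.158) and Ccnh (0.159), against a spread of 0.358. That mean does not describe each of its genes. In Null_HFD 3 the centred values were 3.07 for Timd4, 0.64 for Lyve1, -0.35 for Folr2 and -0.95 for Cd163. None of these 8 genes is on a macrophage list used here. Among the endocytic receptors, the ratio of Folr2 to Mrc1 spanned 1.71 times and that of Lyve1 to Mrc1 3.95 times, against 1.13 times for C1qc to C1qa.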

How the data were processed

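The deposited table holds log2(TPM + 1) values made by the authors, 1 per gene symbol and library, a unit read from the values themselves. The submitters' processing notes name GRCm38, kallisto and limma, with versions and roles not given in the sources used here. TPM values keep no read numbers, so the depth is unknown and its precision cannot be given. The line with no symbol held at most 0.0108% of TPM and was not used. Adgre1 was matched through a RefSeq synonym, and coordinates came from GENCODE M21 (GRCm38).

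A gene entered the fit if 2 or more libraries reached 1 TPM. In R 4.3.3, limma 3.58.1 estimated 4 group means over 10 libraries, with variances that follow mean expression. Tests were two-sided and adjusted over 16932 genes in each of 7 comparisons, with a call at 0.05 after adjustment. On this scale a low gene's fold change is understated. The fit was tested on simulated data with planted differences and, for each gene, the same spread in every library. That setting holds no libraries that stand apart, so it does not show how the fit performs on these data. The members and lists were chosen with earlier results of these data known. The 10 members are named in both averaged comparisons, elsewhere those with an unadjusted p under 0.05 or the smallest p, and of the other lists only a part of the genes the rule allows. Levels of Marco, Siglec1, Prox1, Fcrls, Ccl21a, Ptprc, Lyz2, Ctss, Laptm5, Aif1, Tyrobp and Ly6g were added after their values were seen, as were the fits of the other lists without Null_HFD 3 and WT_HFD 2. Alternatives were another pseudocount (0.1), other filters, median-of-ratios scaling, sample weights, no variance trend, a replicate block, fits on the groups compared, and leaving out libraries.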

Additional observations from a re-analysis of the deposited data

Results flagged for a closer look

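Timd4 in Null_HFD 3, at 6.37 on the log2(TPM + 1) scale (81.5 TPM), stood further from the other 5 null libraries than Dixon's 95% limit allows, with a gap of 0.704 of the range. Timd4 in WT_HFD 2, at 4.65 (24.2 TPM), stood at the limit among the 4 wild-type libraries (0.8298 of the range, against 0.829). These were the flags in 40 sets checked, 10 members in each of the null, wild-type, high-fat and low-fat libraries, where chance flags about 1 in 20. The sets pool both diets or both genotypes.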

How the results depend on the processing

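No member was called in any of the 7 comparisons under any of the alternatives run, so the count stayed at 0 of 10 members throughout. Where a group of 2 loses a library, the lone one is assumed to vary like the other groups. The differences that changed sign were these. For null minus wild type, Folr2 (0.03) was -0.0491 with median-of-ratios scaling and -0.0275 with the replicate block, and Lyve1 (0.21) was -0.10 with the block. For high-fat minus low-fat, Lyve1 (0.12) was -0.0034 with median-of-ratios scaling and, without Null_HFD 3 and WT_HFD 2, Lyve1 was -0.10, Adgre1 0.12 and Timd4 -0.44. Leaving out 1 library gave ranges for genotype of -0.0989 to 0.0132 for Mrc1 (above 0 without Null_LFD 1), -0.0555 to 0.142 for Folr2 (below 0 without Null_LFD 2, Null_LFD 3, WT_HFD 1 or Null_HFD 1) and -0.83 to 0.32 for Timd4 (above 0 without WT_HFD 2, Null_HFD 1 or Null_HFD 2). For diet the ranges were -0.14 to 0.0453 for Adgre1 (above 0 without WT_HFD 2 or Null_HFD 3) and -0.0298 to 0.35 for Lyve1 (below 0 without Null_LFD 1 or Null_HFD 3). The cause was not tested. Whether the replicate numbers pair the samples cannot be settled here. Deviations of same-numbered libraries from their group means correlated between -0.346 and 0.412, above 0.1 in 2 of 13 pairs. Those of differently numbered libraries correlated between -0.502 and 0.502, above 0.1 in 2 of 24 pairs. In a group of 2 the deviations mirror each other, so these correlations are tied together. The block called 0 members.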
